A study of Mus musculus with 18 samples.

Results

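The response of tolerized CD4+ T cells to their antigen was measured as the comparison of TAg with T0, 3 libraries each, which are 6 of the 18 libraries of the series. The cells came from Tg4-H2u mice, in which nearly all CD4+ T cells carry 1 transgenic T cell receptor (TCR), specific for the N-terminal peptide of myelin basic protein. All mice of both groups had been tolerized with 7 subcutaneous doses of the high-affinity 4Y variant of that peptide, in escalating amounts, and were 6 to 12 weeks old. At 2 h before the spleen was taken, TAg mice received a final injection of 80 µg of peptide and T0 mice the vehicle, so that T0 stands for tolerized cells at rest. CD4+ cells were then enriched from the spleen with a magnetic kit, with no further sort described. Naive mice of the same strain and age, which had received vehicle in the same schedule, form the groups NAg (final injection of 80 µg of peptide) and N0 (final injection of vehicle), with 3 libraries each. They share no library with TAg and T0 and serve here for comparison. Cells stimulated in culture for 2 h with phorbol ester and ionophore (NPI from naive and TPI from tolerized mice) entered the model fit, and levels in TPI are given in 2 places. The comparison asks which genes tolerized cells still switch on or off when they meet the antigen in the living animal.

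When a TCR binds its peptide, calcium and calcineurin bring NFAT factors into the nucleus, the Ras and ERK pathway induces EGR and AP-1 factors, and PKC-theta signaling frees NF-kB. Within a few hours these factors turn on cytokines, cytokine receptors and their own inhibitors, MYC starts growth, and genes that keep a resting T cell circulating are switched off. T cells that have met antigen repeatedly without inflammation can become tolerant: they express inhibitory receptors and interleukin-10 and make little interleukin-2.

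Total counts per library were 11198930 to 11453566 in T0 and 10919277 to 12600325 in TAg. Reads of Y-linked genes showed that T0 replicates 1 and 2 and TAg replicate 3 came from male mice and T0 replicate 3 and TAg replicates 1 and 2 from female mice, while all N0 and NAg libraries were female. The libraries of equal sex were also the most alike, with a chi-square per degree of freedom between replicates of 2.89 (T0 1 and 2) and 4.2 (TAg 1 and 2) against 9.31 to 11.7 for the other pairs, and none agreed within sampling noise. The T cell genes *Cd3e* and *Cd4* were expressed at 3914 and 5154 normalized counts in T0. Normalized counts are read counts scaled for library size by the TMM factors of edgeR, to the size of an average library. Of genes that mark other cells, the summed level of 12 neutrophil markers was 2122 to 3527 in T0 and 2553 to 4731 in TAg, that of 8 erythroid markers 209 to 2091 and 85.8 to 1209, that of 8 B cell markers 604 to 3001 and 646 to 979, and that of 7 dendritic cell markers 559 to 1304 and 452 to 853. The groups overlapped in each of these sums and in those of 9 macrophage, 4 NK cell, 4 platelet and 2 CD8 T cell markers. The sum of 8 T cell markers did not overlap, with 27147 to 32289 in T0 and 22839 to 26050 in TAg. Of these 8 genes, 5 fell and 1 rose. Single markers that passed the test were *Mmp8* (1.65 on the log2 scale) and *Retnlg* (1.76) of neutrophils among the rises, and *Cd79b* (−2.0) of B cells, which did not pass without any 1 library other than T0 replicates 2 and 3, *Flt3* (−1.30) and *Clec9a* (−1.80) of dendritic cells and *Cd8b1* (−0.84) among the falls. In these bulk samples, fewer cells of a type and less RNA per cell cannot be told apart. The counting is not stated to have used strand, so that genes whose exons overlap those of another gene are uncertain to that extent. Among the genes named with a value, this holds over at least 100 bp for *Clec9a*, *Slc16a5*, *Gprc5b*, *Tmem150b*, *Il5*, *Il16*, *Cxcl10*, *Cxcl11*, *Fosl1*, *Jun*, *Hif1a*, *Maf*, *Gata3*, *Foxp3*, *Nfatc3*, *Plcg1*, *Sla2*, *Cish*, *Bach2*, *Ccr9*, *Eif4a1*, *Hspd1*, *Hspa1a*, *Irf1*, *Ccnd3*, *Zfp36l1* and *Ramp3*.

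Antigen changed the relative level of most genes within 2 h, and about as many fell as rose. Of 17240 genes tested, 5162 rose (29.9%) and 5143 fell (29.8%) at an adjusted p under 0.05 in the quasi-likelihood test of edgeR (Benjamini-Hochberg adjusted), the limit behind the words rose and fell throughout. The 3 TAg values lay wholly above or below the 3 T0 values for 64.5% of the genes. When a gene also had to change 2-fold or more and to average over 50 normalized counts in its higher group, 2082 genes were called higher (12.1%) and 1944 lower (11.3%), of which 155 and 69 changed by at least 10-fold. The median log2 fold change of all tested genes was −0.05. TMM scaling places typical changes near 0, so the balance of rises and falls and this median are relative. A change in total RNA per cell would not be seen and was not tested.

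**Figure D1:**
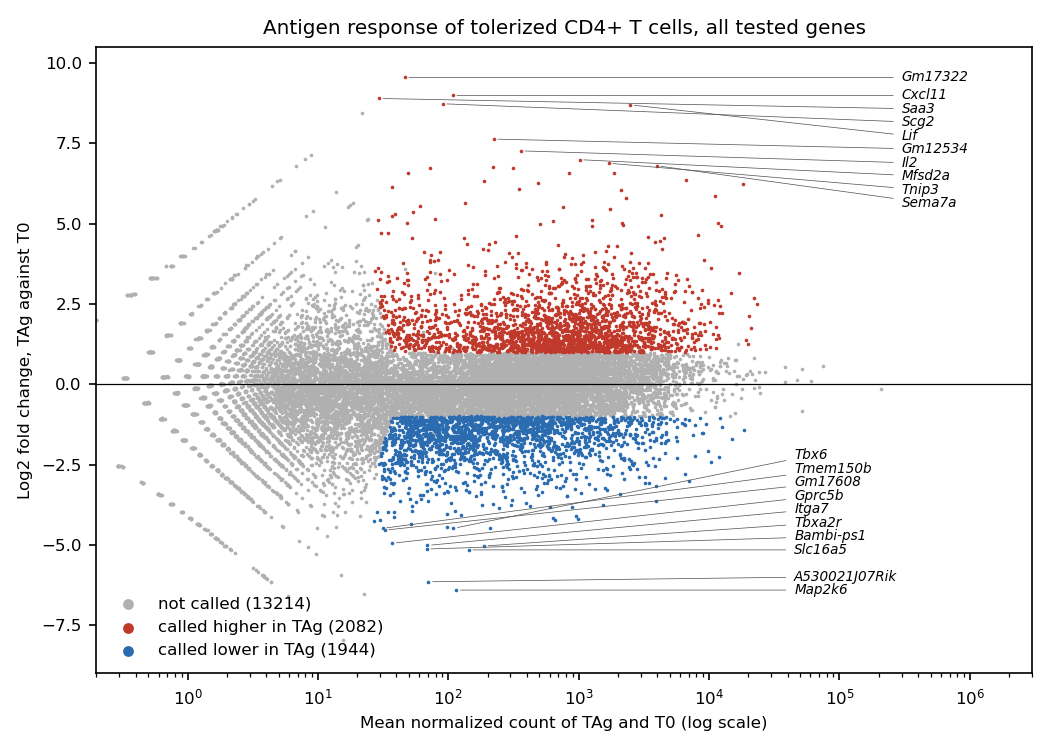
Log2 fold change of TAg against T0 (vertical axis) against the mean normalized count of the 2 groups (horizontal axis, log scale) for the 17240 tested genes, with the 2082 genes called higher in red, the 1944 called lower in blue and the others in grey. The labelled genes are the 10 largest rises and 10 largest falls among called genes whose replicates did not overlap, and the rises extend further from 0 than the falls. The 73 genes with a mean under 0.2 lie outside the axis.

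The largest rises were led by secreted factors. *Lif* (chromosome 11, 4157560 to 4172517 in NCBIM37), a cytokine of the interleukin-6 family, had normalized counts of 9.73, 15.0 and 10.6 in the T0 libraries and 4613, 3756 and 6496 in the TAg libraries, a change of 416-fold (log2 fold change 8.70, standard error 0.29, edgeR adjusted p = 8.51e-13). *Il2* (chromosome 3, 37019445 to 37024881), the T cell growth factor, had 1.77, 7.07 and 4.80 in the T0 libraries and 844, 517 and 788 in the TAg libraries (log2 fold change 7.27, standard error 0.48, edgeR adjusted p = 1.04e-08). The chemokine gene *Cxcl11* had 1 read over the T0 libraries and 599 over the TAg libraries, a ratio of 727 (95% exact interval 130.0 to 28765), and it shares 1582 bp of exon with *Gm2673*, so that its value is uncertain. *Scg2*, a secretogranin of secretory granules, likewise had 1 and 491 reads, a ratio of 596 (95% exact interval 106 to 23588). *Saa3*, an acute-phase gene, had no read in T0 and was at least 65.1-fold higher in TAg, and the noncoding *Gm17322* was at least 102-fold higher, both against a floor of 3 reads over the group. The intervals cover counting error only, and the floors take the TAg reads as exact. *Saa3* did not pass DESeq2's test (adjusted p = 0.0757). In each of these genes the lowest TAg library was above the highest T0 library, which the rule that picked the largest rises required.

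Of the remaining large rises, *Sema7a*, a membrane-anchored semaphorin, had 56.6, 81.3 and 72.9 in the T0 libraries and 8237, 6978 and 8354 in the TAg libraries (log2 fold change 6.80, standard error 0.23, edgeR adjusted p = 1.16e-12). *Tnip3*, an inhibitor of NF-kB signaling, went from 28.5 ± 1.73 (SD, n = 3) to 3369 ± 161, and *Mfsd2a*, a lysolipid transporter, from 15.6 ± 4.39 to 2017 ± 47.4. The noncoding *Gm12534* went from 2.14 ± 1.88 to 446 ± 79.6. It overlaps *Il21* by 35 bp, and reads in that stretch cannot be told apart if strand was not used.

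Among the falls, *Map2k6* (chromosome 11, 110260436 to 110386836), the kinase upstream of p38, was all but lost: it had 226, 225 and 233 in the T0 libraries and 3.30, 1.19 and 3.07 in the TAg libraries (log2 fold change −6.41, standard error 0.27, edgeR adjusted p = 4.88e-16). *Tbxa2r*, the thromboxane receptor, fell from 366 ± 75.3 to 11.1 ± 0.840 and *Slc16a5*, a monocarboxylate transporter family member, from 279 ± 86.3 to 7.83 ± 2.52, where T0 replicate 3 was the lowest resting library. *Itga7*, an integrin chain, *Tbx6*, a T-box factor, *Gprc5b*, an orphan receptor, *Tmem150b*, the pseudogene *Bambi-ps1* and the noncoding or uncharacterized *Gm17608* and *A530021J07Rik* completed the list, with log2 fold changes between −6.15 and −4.48 and at most 9.47 normalized counts in TAg.

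Lists of genes by function were then read, 27 in all with 533 distinct tested genes, of which 360 rose, 85 fell and 88 did not pass the test. The counts of each list stand against the shares of all tested genes, of which 29.9% rose and 29.8% fell.

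**Figure D2:**
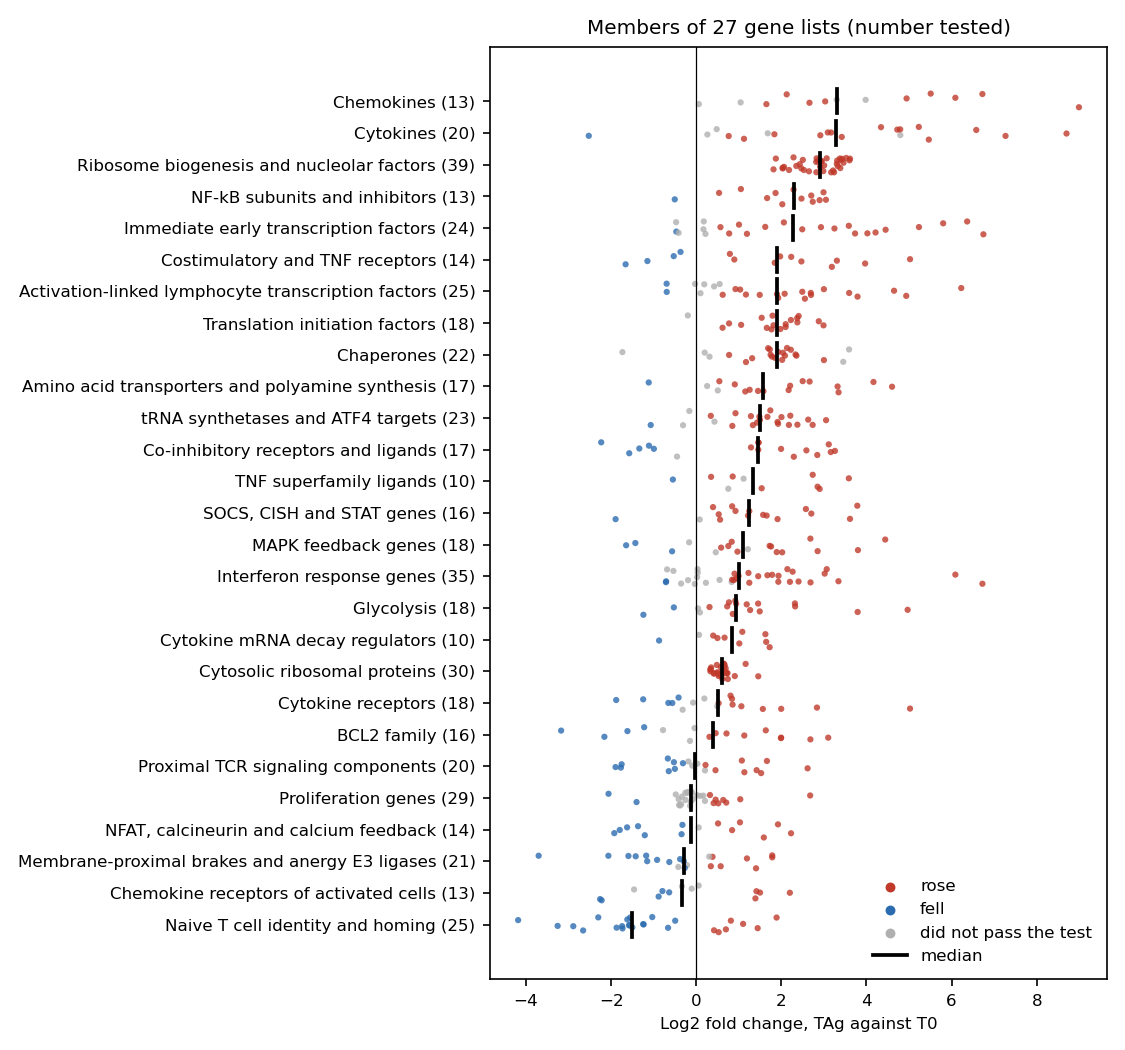
Log2 fold change of TAg against T0 (horizontal axis) of every tested member of the 27 lists (rows), with rises in red, falls in blue and members that did not pass the test in grey, and the list median as a black bar. The ribosome biogenesis and ribosomal protein members are all red, the naive identity members are mostly blue and the proliferation members mostly grey.

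Cytokine genes were induced by antigen in the enriched CD4+ cells of tolerized mice, with *Il21*, *Il10*, *Lif* and *Il2* among the largest rises. *Il27*, whose reads were few, changed by a factor similar to that of *Il10*. The cell that made each transcript was not tested. Of 20 tested members, 15 rose and 1 fell, with a median log2 fold change of 3.29, or 3.0 with genes without a T0 read at their lower bound. *Il10* (chromosome 1, 132916422 to 132921551), the regulatory cytokine of tolerant cells, had 81.4, 89.2 and 61.4 in the T0 libraries and 3475, 3094 and 3719 in the TAg libraries (log2 fold change 5.46, standard error 0.30, edgeR adjusted p = 1.36e-09). *Il21* (chromosome 3, 37121681 to 37131540), which helps B cells and shares 35 bp with *Gm12534*, had 20.3, 61.8 and 32.6 in the T0 libraries and 3055, 3942 and 4050.0 in the TAg libraries (log2 fold change 6.58, standard error 0.39, edgeR adjusted p = 4.2e-09). The groups of both genes were separated by more than a factor of 10, and in *Il21* T0 replicate 2 was the highest resting library.

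The effector cytokines *Ifng*, *Tnf* and *Lta* rose as well. *Ifng*, the macrophage-activating interferon, had 119, 128 and 112 in the T0 libraries and 937, 679.6 and 1096 in the TAg libraries (log2 fold change 2.91, standard error 0.46, edgeR adjusted p = 9.63e-05). *Tnf* had 169.8, 159.9 and 118 in the T0 libraries and 1489, 1165 and 1385 in the TAg libraries (log2 fold change 3.17, standard error 0.18, edgeR adjusted p = 1.13e-10), and *Lta*, its neighbour in the genome that encodes lymphotoxin, 69.0, 73.3 and 52.8 in the T0 libraries and 1714, 993 and 1263 in the TAg libraries (log2 fold change 4.34, standard error 0.20, edgeR adjusted p = 8.82e-12). The TAg replicate 2 library was the lowest of its group in all 3 genes. *Tgfb1* rose by 1.84 and *Osm* by 1.12 on the log2 scale, and *Csf1* by 0.76.

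The cytokine genes *Il17a*, *Il22*, *Il3*, *Csf2*, *Il5* and *Il13* stayed at low counts in TAg, although some of them rose. *Il17a* had 0.885, 3.53 and 2.88 in the T0 libraries and 26.4, 59.6 and 113 in the TAg libraries (log2 fold change 4.72, standard error 1.01, edgeR adjusted p = 0.00115) and *Il22* 1.77, 3.53 and 2.88 in the T0 libraries and 17.6, 20.3 and 33.8 in the TAg libraries (log2 fold change 3.09, standard error 1.0, edgeR adjusted p = 0.0199). No T0 library had a read of *Il3*, which had 7.71, 1.19 and 1.02 in the TAg libraries. Against the floor of 3 reads it was at least 3.64-fold higher, with its TAg reads taken as exact. *Csf2* had 2 reads in T0 and 21 in TAg, a ratio of 12.7 (95% exact interval 3.12 to 112). These low genes rest on few libraries: *Il22* did not pass the test without TAg replicate 3 or without any 1 of the T0 libraries (edgeR adjusted p up to 0.0808), *Il3* not without TAg replicate 1 (edgeR adjusted p = 0.105) and *Csf2* not without any 1 library other than TAg replicate 2 (edgeR adjusted p up to 0.129). *Il5* and *Il13*, cytokines of the Th2 type, had at most 5.96 normalized counts in any T0 or TAg library and did not pass the test (edgeR adjusted p = 0.408 and 0.0967). The exception in direction was *Il16*, a chemoattractant made by resting T cells, which had 4013, 4267 and 5110.0 in the T0 libraries and 757, 979 and 593 in the TAg libraries (log2 fold change −2.53, standard error 0.14, edgeR adjusted p = 1.53e-11).

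Per kilobase of exon, the level in TAg was 2618 for *Il10*, 1165 for *Il21*, 1139 for *Lif*, 957 for *Lta*, 822 for *Tnf*, 749 for *Ifng*, 626 for *Il2* and 56.6 for *Il17a*, as means of 3 libraries. On this scale *Il10* stood highest of these 8, and *Il2* stood at the level of *Ifng* and *Tnf* within a factor of 2.

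**Figure D3:**
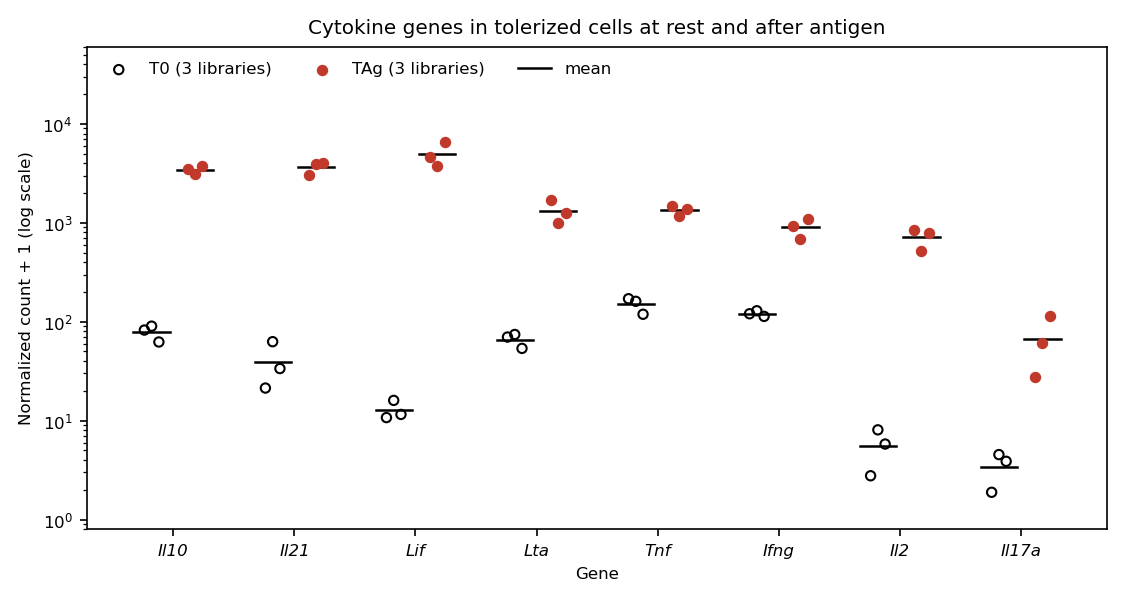
Normalized counts (vertical axis, log scale after adding 1) of 8 cytokine genes in each T0 (open circles) and TAg (filled circles) library, with the group mean as a bar. In each gene shown the 3 TAg libraries lie above the 3 T0 libraries, and *Il17a* stays below 120.

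Chemokine genes rose in 9 of 13 tested members and fell in none (median log2 fold change 3.30, or 2.84 with bounds). *Xcl1*, which attracts cross-presenting dendritic cells, had 27.4, 41.5 and 28.8 in the T0 libraries and 2110.4, 643 and 1715 in the TAg libraries (log2 fold change 5.51, standard error 0.53, edgeR adjusted p = 8.05e-07), with TAg replicate 2 well below the others. *Ccl4*, an inflammatory chemokine, had 79.6, 75.1 and 85.4 in the T0 libraries and 2802, 1717 and 2858 in the TAg libraries (log2 fold change 4.94, standard error 0.27, edgeR adjusted p = 8.91e-10) and *Ccl3* 77.0, 80.4 and 65.2 in the T0 libraries and 534, 352 and 523 in the TAg libraries (log2 fold change 2.66, standard error 0.32, edgeR adjusted p = 6.41e-06), both again lowest in TAg replicate 2. The ligands of CXCR3 are induced by interferons in many cell types. *Cxcl9* had 4.42, 7.95 and 4.80 in the T0 libraries and 658, 528 and 673 in the TAg libraries (log2 fold change 6.72, standard error 0.35, edgeR adjusted p = 4.27e-11) and *Cxcl10* 10.6, 9.72 and 9.59 in the T0 libraries and 670.4, 464 and 923 in the TAg libraries (log2 fold change 6.09, standard error 0.52, edgeR adjusted p = 1.9e-07). The cell that made these transcripts was not tested. *Ccl1* did not pass the test (adjusted p = 0.544 in edgeR).

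Of 10 TNF superfamily ligands, 7 rose and 1 fell. The largest rises were those of *Tnfsf14*, the ligand LIGHT, with 93.8, 107 and 128 in the T0 libraries and 1459, 948 and 1521 in the TAg libraries (log2 fold change 3.58, standard error 0.22, edgeR adjusted p = 1.55e-09), of *Tnfsf8*, the CD30 ligand, by 2.90, of *Tnfsf4*, the OX40 ligand, by 2.85 and of *Tnfsf11*, the osteoclast factor RANKL, by 2.74. *Cd40lg* (chromosome X, 54465320 to 54477219), the ligand by which helper T cells activate B cells, went the other way: it had 407, 416 and 394 in the T0 libraries and 340.2, 246 and 246 in the TAg libraries (log2 fold change −0.55, standard error 0.16, edgeR adjusted p = 0.00699). All TAg libraries were below all T0 libraries. In naive cells the same injection raised *Cd40lg* from 969 ± 206 to 7855 ± 1066 (SD, n = 3), and the responses differed (log2 difference −3.57, standard error 0.22, edgeR adjusted p = 9.01e-09). Tolerized cells stimulated in culture, whose libraries are compared with the same T0 group, had 10033 ± 211.

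Immediate early transcription factors, which are transcribed without new protein synthesis, rose in 18 of 24 members and fell in 1 (median 2.27). *Egr2* (chromosome 10, 66998223 to 67004936), a factor tied to T cell anergy, had 74.3, 106 and 62.3 in the T0 libraries and 4292, 4548 and 4762 in the TAg libraries (log2 fold change 5.80, standard error 0.25, edgeR adjusted p = 2.5e-11). *Egr1* had 467, 516 and 423 in the T0 libraries and 3707, 4525 and 5127 in the TAg libraries (log2 fold change 3.25, standard error 0.13, edgeR adjusted p = 9.44e-16) and *Egr3* 84.0, 76.0 and 42.2 in the T0 libraries and 753, 739 and 951 in the TAg libraries (log2 fold change 3.58, standard error 0.19, edgeR adjusted p = 3.66e-11). In *Egr1*, *Egr2* and *Egr3* the groups were separated by more than a factor of 5.

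The orphan receptors of the NR4A family, which are early reporters of TCR signal, rose strongly as well. *Nr4a3* (chromosome 4, 48058025 to 48099319) had 129, 185 and 161 in the T0 libraries and 13432, 10271 and 15472 in the TAg libraries (log2 fold change 6.37, standard error 0.18, edgeR adjusted p = 8.47e-16), *Nr4a1* 495, 495 and 337 in the T0 libraries and 8668, 6661 and 9303 in the TAg libraries (log2 fold change 4.21, standard error 0.28, edgeR adjusted p = 8.76e-09) and *Nr4a2* 126, 125 and 125 in the T0 libraries and 2153, 1960.1 and 1992 in the TAg libraries (log2 fold change 4.02, standard error 0.09, edgeR adjusted p = 1.53e-20). In naive cells these genes went from 279 to 60986, from 1044 to 63569.5 and from 44.4 to 10851, and each response was smaller in tolerized cells, with log2 differences of −1.40, −1.71 and −3.91 (edgeR adjusted p = 0.000161, 0.0034 and 5.15e-15).

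The AP-1 genes were split. *Fosl2* had 336, 364 and 406 in the T0 libraries and 7886, 7932 and 8322 in the TAg libraries (log2 fold change 4.45, standard error 0.10, edgeR adjusted p = 1.53e-20), *Atf3* rose by 3.73 and *Junb* by 1.0 on the log2 scale, and *Fosl1* rose by 6.75 from at most 2.65 normalized counts in T0. *Fos*, by contrast, had 2096, 1901 and 1893 in the T0 libraries and 1548, 1353 and 1343 in the TAg libraries and *Fosb* 1215, 927 and 933 in the T0 libraries and 856, 645 and 803 in the TAg libraries. All 3 TAg values of *Fos* and of *Fosb* lay below the T0 values, without passing the test (log2 fold change −0.47, standard error 0.27, edgeR adjusted p = 0.149 for *Fos* and edgeR adjusted p = 0.56 for *Fosb*), and in a fit of these 6 libraries alone both were lower (edgeR adjusted p = 7.41e-05 and 0.0177). *Jun* overlapped between groups (log2 fold change 0.22, standard error 0.19, edgeR adjusted p = 0.343). *Fos* reached 74427 in TPI.

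Lymphocyte transcription factors linked to activation rose in 18 of 25 members and fell in 2 (median 1.90). *Irf4* (chromosome 13, 30841095 to 30858796), whose dose follows TCR strength, had 505, 483 and 447 in the T0 libraries and 32978, 36779 and 37774 in the TAg libraries (log2 fold change 6.23, standard error 0.15, edgeR adjusted p = 1.79e-18). *Irf8*, a relative of *Irf4*, had 886, 802 and 679 in the T0 libraries and 24709, 20087 and 27605 in the TAg libraries (log2 fold change 4.93, standard error 0.29, edgeR adjusted p = 2.85e-09), and *Myc*, the driver of growth, 589, 647 and 652 in the T0 libraries and 16014, 14819 and 16519.6 in the TAg libraries (log2 fold change 4.65, standard error 0.11, edgeR adjusted p = 2.11e-20). *Tbx21*, which encodes T-bet of Th1 cells, had 320.2, 356 and 505 in the T0 libraries and 5673, 4898 and 5741 in the TAg libraries (log2 fold change 3.79, standard error 0.23, edgeR adjusted p = 2.65e-09). In these 4 genes the lowest TAg library stood at least 9 times above the highest T0 library.

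*Nfil3*, *Batf*, *Hif1a*, *Ahr*, *Prdm1* and *Maf* rose by 3.59, 3.0, 2.70, 2.49, 2.08 and 1.90 on the log2 scale. *Maf* and *Prdm1*, which are known to drive *Il10*, already had 2781 ± 606 and 340.0 ± 64.7 normalized counts at rest and reached 10356 ± 2963 and 1437 ± 137. *Gata3*, the Th2 factor, had 968, 1018 and 1067 in the T0 libraries and 719, 545 and 622 in the TAg libraries (log2 fold change −0.69, standard error 0.10, edgeR adjusted p = 4.02e-06) and *Bcl6*, the factor of follicular helper cells, 402, 419 and 350.1 in the T0 libraries and 214, 258 and 252 in the TAg libraries (log2 fold change −0.70, standard error 0.16, edgeR adjusted p = 0.000933). Both fell, with no overlap. *Foxp3*, the factor of regulatory T cells, had 776, 1043 and 339.5 in the T0 libraries and 1288, 679.6 and 922 in the TAg libraries, overlapped between groups and did not pass the test (log2 fold change 0.42, standard error 0.41, edgeR adjusted p = 0.404).

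NF-kB genes rose in 12 of 13 members, with a median of 2.29. The subunit *Rel* (chromosome 11, 23641514 to 23670970) had 683, 637 and 532 in the T0 libraries and 4919, 4825 and 5574 in the TAg libraries (log2 fold change 3.05, standard error 0.09, edgeR adjusted p = 1.32e-18) and *Nfkb1* 3176, 3319 and 3420.1 in the T0 libraries and 19475, 16328 and 19228 in the TAg libraries (log2 fold change 2.47, standard error 0.09, edgeR adjusted p = 6.55e-17), whereas *Rela* rose by 1.05. Among the inhibitors, *Nfkbid* rose by 2.74, *Nfkbia* by 2.29 and *Tnfaip3*, which encodes A20, by 1.86. *Cyld*, a deubiquitinase that restrains NF-kB, was the single member that fell, from 3387 ± 36.2 to 2386 ± 44.9 (log2 fold change −0.51, standard error 0.06, edgeR adjusted p = 1.48e-07).

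To show the kind of sequence that stands before these genes, windows of 250 bases before to 50 bases after the start of transcription were taken from RefSeq (GRCm38.p6) and searched on both strands for 3 motifs. The motifs were chosen with the changes known, a gene can have several windows that overlap, and the counts are descriptions of these windows. The kappaB decamer, the consensus site of NF-kB dimers, was found in 10 of 15 windows of 10 NF-kB genes, and in 4.51% of all 32851 windows. It was found in 6.66% of the windows of genes called higher and 4.39% of those called lower. The window of *Rel*, the member with the largest rise among those that hold the decamer before their start, is given with the bases of 2 overlapping matches in capitals (chr11:23770970-23771219 in GRCm38.p6, minus strand, the 250 bases before the start):
Rel: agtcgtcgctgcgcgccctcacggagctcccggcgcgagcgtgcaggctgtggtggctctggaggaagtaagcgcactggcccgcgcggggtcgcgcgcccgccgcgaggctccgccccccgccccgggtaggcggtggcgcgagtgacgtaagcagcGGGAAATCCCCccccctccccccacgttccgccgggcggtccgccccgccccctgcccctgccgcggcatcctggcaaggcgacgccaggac

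Components of the NFAT pathway moved in both directions, with 6 rises and 7 falls among 14 members. *Nfatc1*, whose short isoform is induced by NFAT itself, had 3585, 3704 and 4432 in the T0 libraries and 10752, 12996 and 11477 in the TAg libraries (log2 fold change 1.59, standard error 0.09, edgeR adjusted p = 2.55e-13), and *Nfat5*, the factor of osmotic stress, rose by 2.23. *Nfatc2*, the main NFAT factor of resting T cells, had 2004, 2144 and 2176 in the T0 libraries and 674, 758 and 619.8 in the TAg libraries (log2 fold change −1.62, standard error 0.10, edgeR adjusted p = 2.02e-12) and *Nfatc3* had a log2 fold change of −1.37. Of the calcium entry genes, the channel *Orai1* rose by 1.92 while *Orai2* and the sensor *Stim1* had log2 fold changes of −1.93 and −1.80.

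The receptor-proximal signaling genes were split as well, with 8 rises and 8 falls among 20 members and a median of −0.03. *Malt1*, a protease that acts in NF-kB activation, rose from 3259 ± 377 to 19980.5 ± 2471 (log2 fold change 2.62, standard error 0.11, edgeR adjusted p = 3.48e-16). The kinase *Zap70* rose by 1.66, and *Plcg1*, the phospholipase that makes calcium-releasing signals, had a log2 fold change of −1.77. *Cd4* had 4870.1, 5051 and 5539.7 in the T0 libraries and 3098, 3307 and 3324 in the TAg libraries (log2 fold change −0.67, standard error 0.08, edgeR adjusted p = 6.92e-08), and *Cd3e* did not pass the test (edgeR adjusted p = 0.374).

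Of 21 membrane-proximal brakes and anergy-linked ubiquitin ligases, 7 rose and 11 fell. These were 33.3% and 52.4%, against 29.9% and 29.8% of all tested genes. *Cblb*, the ligase required for anergy, had 4129.8, 4402 and 5075 in the T0 libraries and 13153, 11712 and 11162 in the TAg libraries (log2 fold change 1.40, standard error 0.10, edgeR adjusted p = 4.58e-12), and *Ubash3b* and *Ndfip1*, an adaptor of the ligase Itch, both rose by 1.79. *Dgka*, the diacylglycerol kinase that dampens Ras signaling, had 14668, 14792 and 17845 in the T0 libraries and 3719, 4484 and 3104 in the TAg libraries (log2 fold change −2.07, standard error 0.12, edgeR adjusted p = 2.37e-12). *Sla2*, a SRC-like adaptor that lowers TCR levels, had 777, 749.9 and 689.6 in the T0 libraries and 44.0, 68.0 and 58.4 in the TAg libraries (log2 fold change −3.70, standard error 0.16, edgeR adjusted p = 2.69e-15). *Cbl* and *Itch* had log2 fold changes of −0.63 and −0.29, both past the test. The fall of *Dgka* was smaller than in naive cells (log2 difference 1.72, standard error 0.16, edgeR adjusted p = 2.86e-07).

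The list of inhibitory receptors, their ligands and ectoenzymes rose on the whole, in 11 of 17 members with 5 falls. *Lag3* (chromosome 6, 124854379 to 124861723), an inhibitory receptor for MHC class II, had 208, 225 and 411 in the T0 libraries and 2379, 3015 and 2662 in the TAg libraries (log2 fold change 3.26, standard error 0.31, edgeR adjusted p = 5.74e-07). *Pdcd1*, which encodes PD-1, had 261, 287 and 308 in the T0 libraries and 1626, 1859 and 1659.7 in the TAg libraries (log2 fold change 2.59, standard error 0.18, edgeR adjusted p = 3.64e-09) and *Ctla4* 1854, 1948 and 2754 in the T0 libraries and 8897, 7787 and 9398 in the TAg libraries (log2 fold change 1.99, standard error 0.19, edgeR adjusted p = 2.81e-07). *Tigit* rose by 2.29, *Havcr2*, which encodes TIM-3, by 1.46, *Cd200* by 3.16, and the PD-1 ligands *Cd274* and *Pdcd1lg2* by 2.84 and 3.11. The fallers included both ectoenzymes that turn extracellular ATP into adenosine: *Nt5e*, which encodes CD73, had 1137, 1270.1 and 1463 in the T0 libraries and 229, 410.1 and 189.5 in the TAg libraries (log2 fold change −2.23, standard error 0.38, edgeR adjusted p = 0.000187) and *Entpd1*, which encodes CD39, went from 275 ± 26.8 to 138 ± 15.0 (log2 fold change −1.0, standard error 0.28, edgeR adjusted p = 0.00562). *Cd96*, *Lair1* and *Cd200r1* were the others.

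**Figure D4:**
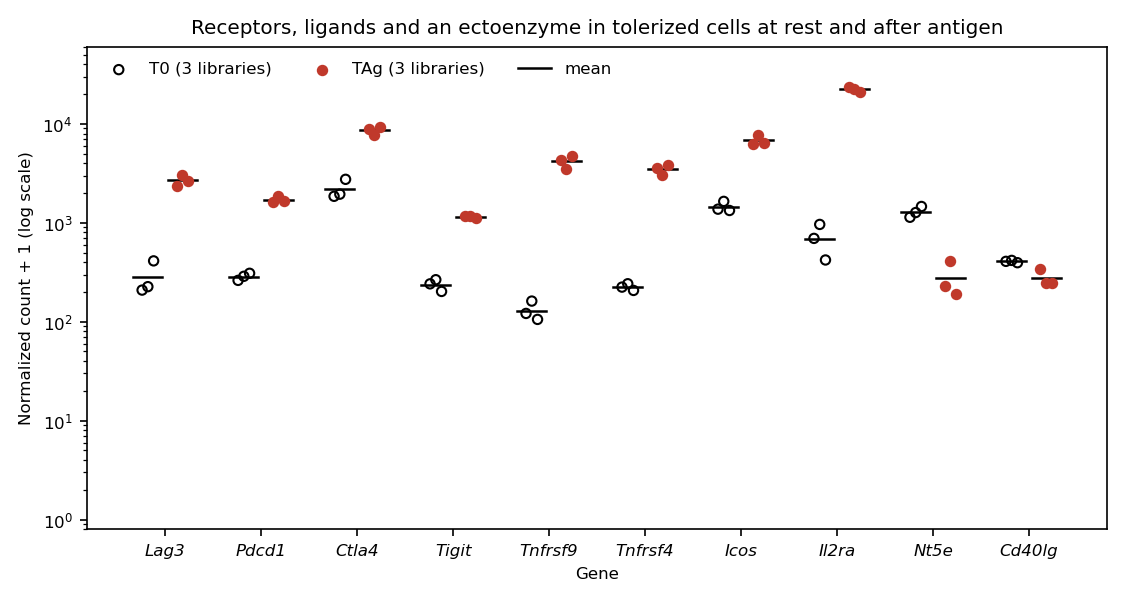
Normalized counts (vertical axis, log scale after adding 1) of 10 receptor, ligand and enzyme genes in each T0 (open circles) and TAg (filled circles) library, with the group mean as a bar. The groups do not overlap in any of them, *Nt5e* and *Cd40lg* being lower in TAg and the others higher.

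Costimulatory receptors rose in 10 and fell in 4 of 14 members, the rises being led by the TNF receptor family. *Tnfrsf9* (chromosome 4, 150288671 to 150320211), which encodes 4-1BB, had 120.3, 161 and 105 in the T0 libraries and 4359, 3494 and 4725 in the TAg libraries (log2 fold change 5.02, standard error 0.30, edgeR adjusted p = 3.6e-09), *Tnfrsf4*, which encodes OX40, 223, 241 and 206 in the T0 libraries and 3572, 3065 and 3859 in the TAg libraries (log2 fold change 3.97, standard error 0.17, edgeR adjusted p = 4.77e-12), and *Icos* rose by 2.23. *Cd69*, the early activation marker, had 731, 682 and 933 in the T0 libraries and 7064, 6121 and 8145 in the TAg libraries (log2 fold change 3.19, standard error 0.15, edgeR adjusted p = 2.32e-12). *Cd28* had a log2 fold change of −0.53 and *Cd226* of −1.66, both falls.

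Cytokine receptor genes rose in 9 and fell in 5 of 18 members. *Il2ra* (chromosome 2, 11564419 to 11614818), the high-affinity chain of the interleukin-2 receptor, had 695, 963 and 420.1 in the T0 libraries and 23633, 22782 and 21269 in the TAg libraries (log2 fold change 5.02, standard error 0.25, edgeR adjusted p = 2.56e-10), *Il12rb2* rose by 2.84, with TAg replicate 3 the lowest of its group, and *Il2rb*, the shared beta chain, by 0.81, although not past the test without T0 replicate 1 (edgeR adjusted p = 0.0738). *Il7r*, the receptor for the survival factor of resting cells, had 6248, 5944 and 5619 in the T0 libraries and 2983, 2585 and 1937 in the TAg libraries (log2 fold change −1.25, standard error 0.13, edgeR adjusted p = 1.19e-07), and *Ifngr1* fell to 600.1 from 2209. Of the 16 genes of the SOCS, CISH and STAT list, 14 rose. The feedback inhibitors *Cish* and *Socs1* went from 462 ± 45.6 to 6362 ± 616 and from 238 ± 24.9 to 2909.8 ± 126, with log2 fold changes of 3.78 and 3.61, *Stat5a* rose by 2.70 and *Stat3* by 1.91. The single faller was *Stat4*, the factor downstream of interleukin-12, with 2252, 2219.6 and 2793 in the T0 libraries and 609.9, 616 and 724 in the TAg libraries (log2 fold change −1.90, standard error 0.13, edgeR adjusted p = 9.79e-11).

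Feedback inhibitors of the MAP kinase pathways rose in 12 of 18 members and fell in 3. *Spry1* (chromosome 3, 37538869 to 37543520), a sprouty inhibitor of Ras signaling, had 209.6, 252 and 555 in the T0 libraries and 7276, 6730.3 and 7969.8 in the TAg libraries (log2 fold change 4.44, standard error 0.32, edgeR adjusted p = 2.82e-08), with T0 replicate 3 above the other resting libraries. *Dusp6* (chromosome 10, 98725865 to 98730122), the phosphatase that inactivates ERK, had 441, 382 and 387 in the T0 libraries and 1517, 1781 and 1615 in the TAg libraries (log2 fold change 2.02, standard error 0.17, edgeR adjusted p = 4.91e-08). In naive cells *Dusp6* had 323, 183 and 189 in the N0 libraries and 155, 117 and 179 in the NAg libraries and fell (log2 fold change −0.62, edgeR adjusted p = 0.0156), and the responses differed (log2 difference 2.64, standard error 0.27, edgeR adjusted p = 6.12e-06). *Dusp4* rose by 3.80 and *Dusp5*, another ERK phosphatase, by 1.76. *Dusp10*, which acts on JNK and p38, fell from 700.0 ± 71.3 to 261 ± 63.7 (log2 fold change −1.43, standard error 0.32, edgeR adjusted p = 0.0016), and *Dusp1* overlapped between groups and did not pass the test (adjusted p = 0.274 in edgeR).

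The genes of resting, recirculating T cells fell, in 18 of 25 members with a median of −1.50. *Klf3* (chromosome 5, 65194628 to 65221368), a Kruppel-like repressor, had 1695, 1751 and 2133 in the T0 libraries and 85.9, 90.6 and 128 in the TAg libraries (log2 fold change −4.19, standard error 0.17, edgeR adjusted p = 3.99e-13). *S1pr1*, the receptor needed to leave lymphoid organs, had 5388, 5406 and 6372 in the T0 libraries and 714, 786 and 816 in the TAg libraries (log2 fold change −2.89, standard error 0.12, edgeR adjusted p = 3.06e-14) and *Klf2*, the factor that induces it, 2766, 2951 and 4280.4 in the T0 libraries and 1294, 1161 and 1075 in the TAg libraries (log2 fold change −1.50, standard error 0.30, edgeR adjusted p = 0.000691). *Cxcr4*, a chemokine receptor that retains cells in tissues, had 1237, 1094 and 2776 in the T0 libraries and 172, 235 and 130.1 in the TAg libraries (log2 fold change −3.26, standard error 0.48, edgeR adjusted p = 4.81e-05). In *Klf2* and *Cxcr4* T0 replicate 3 was the highest library, and all TAg libraries were below the lowest T0 library.

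The homing receptor *Ccr7* and the stemness factors *Tcf7* and *Lef1* fell with log2 fold changes of −1.55, −1.57 and −1.58. The members that rose were *Bach2* (2253 ± 106 to 8336 ± 936, log2 fold change 1.89, standard error 0.11, edgeR adjusted p = 1.33e-12), which encodes a repressor of effector genes, and *Slfn2*, *Foxp1*, *Igfbp4*, *Satb1*, *Gpr183* and *Btg1*. *Igfbp4* did not pass the test in a fit of the 6 libraries alone. The responses of *Bach2* and *Igfbp4* exceeded those of naive cells by log2 differences of 1.59 and 1.84 (edgeR adjusted p = 1.66e-07 and 0.000198). Among 13 chemokine receptors of activated cells, 4 rose, led by *Ccr8* (2.20), with *Gpr65* and *Cxcr5* among them, and 5 fell, led by *Ccr9* (−2.26) and *Gpr15* (−2.22). These shares, 30.8% and 38.5%, were near those of all tested genes (29.9% and 29.8%), so the list as a whole did not stand out. The falls numbered 3 without T0 replicate 1 or 2, with sex as a covariate and in some other fits, and 2 without TAg replicate 1.

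In the BCL2 family, 9 of 16 members rose and 4 fell. *Bcl2l1*, which encodes the survival protein BCL-XL, had 313, 349 and 293 in the T0 libraries and 3024, 2308 and 2871 in the TAg libraries (log2 fold change 3.10, standard error 0.13, edgeR adjusted p = 1.75e-13). The death genes *Bmf* and *Bbc3*, which encodes PUMA, went from 152 ± 64.2 to 16.4 ± 10.4 and from 209 ± 26.7 to 46.7 ± 2.35, with log2 fold changes of −3.18 and −2.16, while *Bcl2l11*, which encodes BIM, rose by 0.71.

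Growth genes rose together. All 39 tested genes of ribosome biogenesis rose, with log2 fold changes from 1.82 to 3.61 and a median of 2.91, and TAg and T0 did not overlap in any of them. *Polr1b* (chromosome 2, 128926731 to 128952330), a subunit of RNA polymerase I, had 493, 499.9 and 464 in the T0 libraries and 6037, 5833 and 5954 in the TAg libraries (log2 fold change 3.61, standard error 0.07, edgeR adjusted p = 4.6e-22). *Nop2*, a methyltransferase of ribosomal RNA, had 375, 409 and 475 in the T0 libraries and 4525, 4433 and 4177 in the TAg libraries (log2 fold change 3.38, standard error 0.09, edgeR adjusted p = 1.37e-19) and *Ncl*, which encodes nucleolin, 3746, 3663 and 3513 in the T0 libraries and 26853, 25288 and 25434 in the TAg libraries (log2 fold change 2.83, standard error 0.09, edgeR adjusted p = 3.51e-18). The spread within groups was small against these changes.

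The E-box CACGTG, which is bound by MYC with MAX and also by other factors, was found in 8 of 37 windows of 34 of these genes and in 7 of 19 windows of 13 translation initiation genes. It was found in 7.15% of all windows, in 9.67% of those of tested genes, in 15.7% of those of genes called higher and in 8.62% of those of genes called lower. The window of *Nop2* is given with the E-box in capitals (chr6:125131633-125131882 in GRCm38.p6, plus strand, the 250 bases before the start):
Nop2: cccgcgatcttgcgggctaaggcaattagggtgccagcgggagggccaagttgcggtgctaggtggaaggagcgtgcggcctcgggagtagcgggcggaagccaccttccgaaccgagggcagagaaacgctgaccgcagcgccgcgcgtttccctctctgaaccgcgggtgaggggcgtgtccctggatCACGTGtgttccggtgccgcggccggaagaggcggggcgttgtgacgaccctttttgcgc

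Of 18 translation initiation factors, 17 rose, including *Eif5a* (2.88) and the helicase *Eif4a1* (2.41), and the exception was the inhibitor *Eif4ebp1*, which did not pass the test (edgeR adjusted p = 0.571). All 30 ribosomal protein genes rose too, by 0.33 to 1.46 on the log2 scale. Ribosomal protein genes have many processed pseudogenes, between which reads may be split.

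Nutrient uptake and synthesis followed. Of 17 genes of amino acid transport and polyamine synthesis, 14 rose. *Slc7a5* (chromosome 8, 124405052 to 124431594), the transporter of large neutral amino acids, had 257, 275 and 280.1 in the T0 libraries and 6399, 6294 and 7009 in the TAg libraries (log2 fold change 4.60, standard error 0.08, edgeR adjusted p = 5.84e-23). *Srm*, which makes spermidine, had 157, 162 and 198 in the T0 libraries and 3129, 2987 and 3121 in the TAg libraries (log2 fold change 4.16, standard error 0.10, edgeR adjusted p = 2.04e-20), and *Odc1*, which makes putrescine, rose by 3.34. Of 23 tRNA synthetases and ATF4 targets, 19 rose, with *Psat1* of serine synthesis (3.05) and mitochondrial *Shmt2* (2.73) at the head.

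Glycolysis genes rose in 14 of 18 members. *Hk2*, the inducible hexokinase, had 126, 133 and 144 in the T0 libraries and 4268, 4144 and 4212 in the TAg libraries (log2 fold change 4.97, standard error 0.20, edgeR adjusted p = 3.88e-12), the lactate transporter *Slc16a1* rose by 3.79 and lactate dehydrogenase *Ldha* by 2.32, while the glucose transporter *Slc2a3* had a log2 fold change of −0.53. Chaperone genes rose in 17 of 22 members and fell in none, with the mitochondrial chaperonin *Hspd1* from 764 ± 44.7 to 6114 ± 512. The heat-inducible *Hspa1b* had 11.5, 15.0 and 12.5 in the T0 libraries and 174, 244 and 17.4 in the TAg libraries and did not pass the test (log2 fold change 3.45, standard error 1.58, edgeR adjusted p = 0.0779). Its TAg replicate 3 stood far below the other 2, and without that library it passed (adjusted p = 0.0455). The gene has a nearly identical copy, *Hspa1a*, between which reads may be split.

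Interferon response genes rose in 22 of 35 members and fell in 2 (median 0.99). Beside the chemokines, the GTPase genes that interferon-gamma induces rose most. *Iigp1* had 421, 559 and 509 in the T0 libraries and 5082, 4838 and 5175 in the TAg libraries (log2 fold change 3.34, standard error 0.32, edgeR adjusted p = 7.71e-07), *Gbp5* 376, 450.4 and 388 in the T0 libraries and 3821, 3065 and 3289 in the TAg libraries (log2 fold change 3.07, standard error 0.23, edgeR adjusted p = 4.22e-08) and *Gbp2* 515, 586 and 548 in the T0 libraries and 4743, 4612 and 4001 in the TAg libraries (log2 fold change 3.02, standard error 0.15, edgeR adjusted p = 8.99e-12). *Irf1*, the factor that interferon-gamma acts through, rose by 1.93. Of the antiviral genes typical of type I interferon, *Isg15* rose by 2.26 and *Oas2* by 2.68. *Ifit1*, *Ifit3*, *Mx1*, *Mx2* and 7 others did not pass the test (*Mx2* passed without T0 replicate 3), and *Ifit2* and *Ddx58* fell, with log2 fold changes of −0.71 and −0.71.

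The core of the interferon-stimulated response element, GAAA and GAAA with 2 bases of any kind between them, was found in 17 of 32 windows of 26 of these genes and in 3.44% of all windows, and in 4.04% and 2.70% of the windows of genes called higher and lower. The window of *Cxcl10* has it in capitals (chr5:92348890-92349139 in GRCm38.p6, minus strand, the 250 bases before the start):
Cxcl10: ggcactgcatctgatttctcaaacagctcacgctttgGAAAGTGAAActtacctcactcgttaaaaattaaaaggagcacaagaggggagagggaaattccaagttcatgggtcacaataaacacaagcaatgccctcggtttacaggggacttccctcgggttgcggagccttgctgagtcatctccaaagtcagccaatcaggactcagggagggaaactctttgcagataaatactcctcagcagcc

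Most cell cycle genes did not pass the test at 2 h. The share that rose, 27.6%, was near the 29.9% of all tested genes. Of 29 members of the proliferation list, 8 rose, 2 fell (5 without TAg replicate 3) and 19 did not pass the test, *Mki67* among them with 1170.2, 922 and 957 in the T0 libraries and 852, 706 and 1227 in the TAg libraries (edgeR adjusted p = 0.746). *Ccnd2*, the early G1 cyclin, had 5576, 6246 and 6015 in the T0 libraries and 37477, 38678 and 37885 in the TAg libraries (log2 fold change 2.68, standard error 0.08, edgeR adjusted p = 4e-19), whereas *Ccnd3* and *Ccne1* had log2 fold changes of −1.40 and −2.06. Of 10 regulators of cytokine mRNA decay, 8 rose, including *Zfp36l1* (1.72) and *Zc3h12d* (1.64), and *Zfp36l2* fell from 12014 ± 4518 to 6556 ± 1391, with T0 replicate 3 the highest library. Without that library, or without TAg replicate 1 or 3, it did not pass the test (edgeR adjusted p = 0.112, 0.0509 and 0.0856).

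The same injection into naive mice gave a comparison of the same kind with other libraries. There, 5534 genes rose (32.1%) and 5761 fell (33.4%). Of the 2082 genes called higher in TAg, 2044 also rose and 3 fell in naive cells, and of the 1944 called lower, 1858 also fell and 5 rose. The difference of the 2 responses, tested as an interaction, was above 0 for 2511 genes (14.6%) and below 0 for 1223 (7.09%) of all tested genes. Among genes called higher in TAg, the rise was smaller than in naive cells for 425 and larger for 105. Among genes called lower, the fall was smaller for 848 and larger for 95. Neutrophil marker sums were 93.2 to 223 in N0 and 153 to 458 in NAg, well below those of T0 and TAg. Macrophage marker sums were 452 to 714 in N0, 448 to 2230 in NAg, 403 to 520 in T0 and 359 to 450 in TAg. Scores of neutrophil, erythroid and B cell markers entered the covariate fit given below, and macrophage markers did not.

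**Figure D5:**
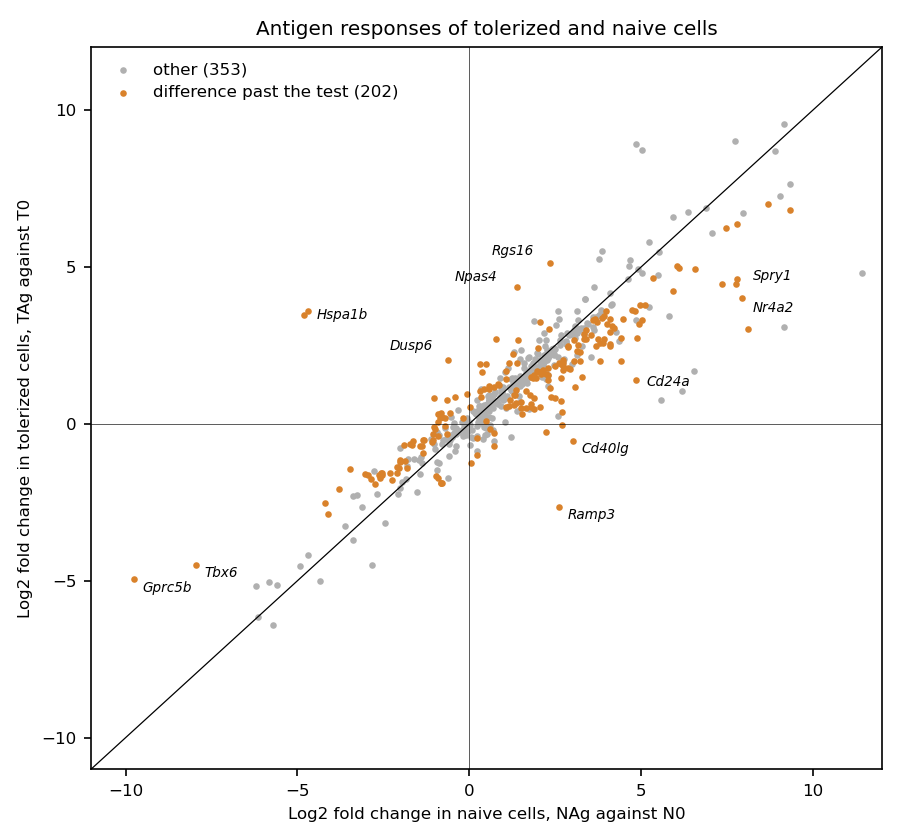
Log2 fold change in tolerized cells (TAg against T0, vertical axis) against that in naive cells (NAg against N0, horizontal axis) of the tested genes in the 27 lists and of the genes named by rule, with those in orange whose responses differed at an adjusted p under 0.05 and the diagonal as a line. Most points lie near the diagonal, *Cd40lg*, *Nr4a2*, *Ramp3* and *Spry1* below it and *Dusp6*, *Rgs16* and *Npas4* above it. The 2 genes at the left above the diagonal are *Hspa1a* and *Hspa1b*, whose differences of 8.27 each fell to 1.98 and 3.35 without N0 replicate 1.

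Among genes called in TAg against T0, the largest shortfalls against naive cells were of *Ramp3*, *Nr4a2*, *Cd24a*, *Spry1* and *Syde2*. *Ramp3*, which modifies calcitonin-family receptors, fell in tolerized cells from 55.7 ± 9.23 to 8.74 ± 2.36 and rose in naive cells from 58.5 ± 6.12 to 358 ± 104 (log2 difference −5.25, standard error 0.41, edgeR adjusted p = 1.37e-07). *Spry1* reached a similar level in both, 7325 ± 621 in TAg and 6705 ± 227 in NAg, from 339 ± 189 in T0 and 30.6 ± 17.1 in N0 (log2 difference −3.32, standard error 0.51, edgeR adjusted p = 0.000427). *Cd24a*, a surface glycoprotein, rose by 1.40 with TAg replicate 2 below T0 replicate 1 and not past the test without T0 replicate 2 or 3 or TAg replicate 3 (edgeR adjusted p = 0.0685, 0.064 and 0.0808), against 4.84 in naive cells, and *Syde2*, an activator of small GTPases, by 4.61 against 7.77.

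Cytokine genes were compared with naive cells as well. In NAg, *Il2* reached 4452 ± 1209 from 8.38 ± 2.19 in N0 (SD, n = 3), *Tnf* 3004 ± 367 from 188 ± 44.0 and *Ifng* 932 ± 583 from 48.4 ± 25.7. The differences of the responses were −1.76 for *Il2*, −0.82 for *Tnf* and −1.34 for *Ifng* (edgeR adjusted p = 0.357, 0.0233 and 0.239), that of *Tnf* missing the limit in 5 of 12 fits that left out 1 library (edgeR adjusted p up to 0.09). *Il10* reached 82.4 ± 37.4 from 1.65 ± 1.51 and *Il21* 459 ± 188 from 7.30 ± 6.01, with differences of −0.04 and 0.65 (edgeR adjusted p = 0.973 and 0.73). The TAg and NAg libraries did not overlap in *Il2*, which was higher in NAg, nor in *Il10* and *Il21*, which were higher in TAg, although the fold changes of these 3 genes did not differ by the test.

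Over the lists, the difference was below 0, a smaller rise or a larger fall in tolerized cells, for 8 of 13 NF-kB genes and above 0 for 2. For ribosome biogenesis it was below 0 for 9 of 39 genes and above 0 for none, with medians of the fold changes of 2.91 in tolerized and 3.10 in naive cells. For interferon response genes it was below 0 for none of 35 and above 0 for 8, with medians of 0.99 and 0.87. For the naive identity genes, most of which fell, it was above 0 for 10 of 25 and below 0 for 4, with medians of −1.50 and −1.91. None of the 30 ribosomal protein genes differed by this test.

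Among genes called in TAg against T0, the largest excesses over naive cells were of *Gprc5b*, *Tbx6*, *Npas4*, *Rgs16* and *Dusp6*. *Rgs16*, which limits G-protein signals of chemokine receptors, had 51.3, 79.5 and 83.4 in the T0 libraries and 2569, 2126 and 2709.9 in the TAg libraries and 46.6, 8.35 and 25.8 in the N0 libraries and 173, 146 and 95.7 in the NAg libraries (log2 difference 2.78, standard error 0.53, edgeR adjusted p = 0.00211). *Npas4*, an activity-dependent factor best known in neurons, had 7.96, 16.8 and 13.4 in the T0 libraries and 249.9, 396 and 147 in the TAg libraries and rose to 23.4 ± 9.68 in NAg (log2 difference 2.96, standard error 0.64, edgeR adjusted p = 0.00223). For *Gprc5b* and *Tbx6*, which fell in both, the difference rests on 0 and 2 reads in all NAg libraries and its size is uncertain.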

How the data were processed

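CD4+ T cells were enriched from spleens with a magnetic kit, total RNA was depleted of ribosomal RNA, and libraries were sequenced in pairs of reads. The authors aligned reads to the mouse genome mm9 (NCBIM37) with TopHat2 2.1.1 and counted them per Ensembl gene with HTSeq 0.9.1, per the submitters' processing notes and the study's methods, which also name DESeq2 1.18 and edgeR 3.24. The strand and overlap settings of the counting are not given in the sources used here. The deposited values were raw counts per gene, which the authors had neither normalized nor pooled.

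Groups were taken from the sample labels. Genes that averaged 3 or more normalized counts in any of the 6 groups were tested in R 4.3.3 with edgeR 4.0.16 (TMM, 6 group means over 18 libraries, robust quasi-likelihood F test, Benjamini-Hochberg adjustment over all tested genes). The standard error is the log2 fold change divided by the square root of F. DESeq2 1.42.0 was an alternative. Counts of 17040 genes were also simulated from the 6 group means, with TAg set equal to T0. Genes averaging over 50 in T0 were then changed, as many up as down. The test called 86 of 100 genes changed by 1 on the log2 scale, 100 of 100 changed by 2 and 9 of 16840 unchanged genes. This does not cover changes in genes of low count or data in which most genes change. The labels do not say that each library came from its own mouse, so p-values measure the spread between these libraries. Ratios of read sums have exact 95% intervals.

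Genes named were members of the lists, the 10 largest rises and 10 largest falls among called genes whose TAg and T0 libraries did not overlap, and the 5 largest differences from naive cells in each direction; others are marked. The comparison, the lists and the tests were chosen with earlier results of these data known. Promoter windows came from RefSeq (GRCm38.p6) by gene symbol. They are given by their own coordinates and were not used with the NCBIM37 positions. Results for some list members are not reported here.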

Additional observations from a re-analysis of the deposited data

Results flagged for a closer look

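The response of tolerized cells to antigen differed from that of naive cells, in edgeR's test of the difference itself at an adjusted p under 0.05, for 104 of the 219 genes named with values, where a value below 0 is a smaller rise or a larger fall in tolerized cells. The values that follow are log2 differences, the fold change in tolerized cells less that in naive cells, with 3 libraries in each of the 4 groups. They were below 0 for 62 genes and above 0 for 42. The named genes were picked by function or by the size of their change or difference, so this balance is theirs alone: over all 17240 tested genes the difference was above 0 for 2511 (14.6%) and below 0 for 1223 (7.09%). All naive libraries came from female mice and the tolerized ones from both sexes. With 3 libraries a group, no single library was tested for standing apart.

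Of genes that rose in both kinds of cell, the rise was smaller in tolerized cells for the NF-kB genes *Nfkbid* (−1.68), *Nfkb1* (−1.62), *Rel* (−1.15), *Nfkbia* (−0.94) and *Rela* (−0.59) and for the immediate early factors *Nr4a2* (−3.91), *Fosl2* (−2.91), *Nr4a1* (−1.71) and *Nr4a3* (−1.40). The same held for the activation-linked factors *Irf8* (−1.62), *Tbx21* (−1.32), *Irf4* (−1.23), *Hif1a* (−0.69) and *Myc* (−0.69). Of surface and secreted molecules it held for *Cd24a* (−3.45), *Sema7a* (−2.53), *Tnfsf11* (−2.15), *Gpr65* (−1.77), *Cd69* (−1.76), *Il2rb* (−1.69), *Pdcd1* (−1.28), *Gpr183* (−1.27), *Ctla4* (−1.23), *Tnfsf14* (−1.22), *Tfrc* (−1.15), *Il2ra* (−1.03), *Tnf* (−0.82), *Tgfb1* (−0.64) and *Cd274* (−0.48). Of genes of the cytokine response it held for *Cish* (−1.19), *Socs1* (−1.11), *Stat5a* (−1.05) and *Stat3* (−0.76), and of feedback and signaling genes for *Spry1* (−3.32), *Syde2* (−3.17), *Gadd45b* (−1.87), *Dusp5* (−1.16), *Ubash3b* (−1.07), *Cblb* (−0.88), *Orai1* (−0.80), *Nfatc1* (−0.63), *Ndfip1* (−0.49) and *Zap70* (−0.36). Among the rest it held for *Mir155* (−2.20), for the survival and death genes *Bcl2l11* (−1.94) and *Bcl2l1* (−1.05) and for *Mfsd2a* (−1.70), *Hk2* (−1.12), *Odc1* (−1.11), *Satb1* (−0.82), *Ncl* (−0.71), *Zfp36l1* (−0.41) and *Ccnd2* (−0.38). Of 19 alternatives, the test was missed in 8 for *Il2ra*, 7 for *Cd274* and for *Tnf*, 3 for *Tnfsf14* and 2 for *Hk2* and for *Zap70*. A smaller fold rise need not mean a lower level after antigen, since levels at rest can differ. The study names *Ctla4* and *Pdcd1* among genes that were more inducible in tolerized cells. Its analyses included levels in TAg against NAg, a measure other than the difference of fold changes given here.

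A rise that was larger in tolerized cells was measured for *Npas4* (2.96), *Rgs16* (2.78), *Oas2* (1.90), *Bach2* (1.59), *Zc3h12d* (1.28), *Egr1* (1.18), *Nfat5* (0.97), *Gbp2* (0.69), *Foxp1* (0.68), *Osm* (0.56) and *Irf1* (0.54), and for *Maf* (1.41), which passed the test in tolerized cells and not in naive cells. The difference missed the threshold in 13 of 19 alternatives for *Maf*, in 7 for *Osm* and in 2 for *Gbp2*.

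A fall in both kinds of cell was smaller in tolerized cells for the resting T cell genes *S1pr1* (1.21), *Ccr7* (1.02), *Tcf7* (0.97) and *Lef1* (0.74) and for the signaling genes *Dusp10* (2.04), *Dgka* (1.72), *Cd4* (1.0), *Nfatc2* (0.93), *Orai2* (0.83), *Rasgrp2* (0.81), *Cyld* (0.80), *Nfatc3* (0.74), *Cd28* (0.52) and *Stim1* (0.45). It was also smaller for *Gprc5b* (4.79), *Tbx6* (3.46), *Il16* (1.68), *Dtx1* (1.34), *S1pr4* (0.85), *Ddx58* (0.73), *Ifit2* (0.68), *Ccnd3* (0.64), *Cd96* (0.53) and *Mxd4* (0.52). The fall was larger in tolerized cells for *Stat4* (−1.07), *Ifngr1* (−1.05) and *Cd226* (−0.70) and for *Itgae* (−2.40) and *Entpd1* (−1.20), both of which did not pass the test in naive cells. Among these genes the threshold was missed in 15 of 19 alternatives for *Ifit2*, 14 for *Entpd1*, 13 for *Stim1*, 11 for *Cd28* and for *Itgae*, 9 for *S1pr4* and 3 for *Mxd4* and for *Rasgrp2*.

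Opposite directions, past the test in each kind of cell, were measured for *Ramp3* (−5.25), *Cd40lg* (−3.57) and *Bcl6* (−1.40), which fell in tolerized and rose in naive cells, and for *Dusp6* (2.64) and *Igfbp4* (1.84), which rose in tolerized and fell in naive cells. For *Dusp1* (−0.76) the naive response rose, for *Hspa1a* (8.27), *Hspa1b* (8.27), *Cd3e* (0.93) and *Jun* (1.01) it fell, and the tolerized response did not pass the test. The differences of *Hspa1a* and *Hspa1b* rest on N0 replicate 1, without which they were 1.98 and 3.35 (edgeR adjusted p = 0.701 and 0.193). They missed the threshold in 13 and 4 of 19 alternatives, and that of *Jun* in 1.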

How the results depend on the processing

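All counts of genes over the whole table stayed within 1.5 times their reported value under the alternatives tried, except that 2973 genes in place of 1944 were called lower when no minimum average count was asked. The alternatives were DESeq2, DESeq2's size factors in edgeR, no filter on low counts, a fit of only the groups compared, sex or the marker scores of other cells as covariates, and leaving out each library. Without each library in turn, the genes called higher numbered 1946 to 2103 and those called lower 1931 to 2046, while 4720 to 4992 rose and 4832 to 5098 fell. The members of lists that rose were 351 to 360 and those that fell 79 to 86. In naive cells 5064 to 5415 rose and 5464 to 5811 fell, and the difference of the responses was above 0 for 2148 to 2965 and below 0 for 959 to 1192 genes.

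The labels do not say what the replicate numbers shared by the groups mark, and the numbers were not used as pairs. The deviations of TAg and T0 libraries with the same number correlated at −0.03, −0.0008 and −0.20. With 3 libraries a group, these correlations cannot exclude a pairing. With the number as a block, 2081 genes were called higher and 1947 lower, 360 and 83 members of lists rose and fell, and 3 chemokine receptors fell in place of 5. The block did not change the side of the threshold for TAg against T0 of any of the 219 named genes, and for the difference of the responses it did so for *Maf*, *Hspa1a*, *Ifit2* and *Itgae*.

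Of those 219 genes, 203 kept direction and side of the threshold for TAg against T0 in each alternative. *Mki67*, not past the test in any, had log2 fold changes from −0.38 (without TAg replicate 3) to 0.033 (without TAg replicate 2). The other exceptions, besides the left-out libraries named with the genes above, were *Cd79b* with sex as a covariate (edgeR adjusted p = 0.081), *Saa3* in DESeq2 (0.0757), *Il22* and *Il3* with marker scores as covariates (0.0877 and 0.0777), *Csf2* with no filter on low counts (0.0588), and *Igfbp4*, *Zfp36l2* and *Cd24a* in a fit of the 6 libraries alone (0.075, 0.0502 and 0.142), none of which passed there. *Fos* and *Fosb* in the fit of the 6 libraries alone (7.41e-05 and 0.0177), *Il13* in DESeq2 and in that fit (0.0045 and 0.0124) and *Hspa1a* and *Hspa1b* in DESeq2 (0.0209 and 0.00946) passed there, as did *Hspa1b* in the fit of the 6 libraries alone (0.0481), *Hspa1a* without TAg replicate 3 (0.0452) and *Mx2* without T0 replicate 3 (0.0323). Of the 104 differences of responses, 20 missed the threshold in at least 1 alternative: those of *Cd274*, *Cd28*, *Entpd1*, *Gbp2*, *Hk2*, *Hspa1a*, *Hspa1b*, *Ifit2*, *Il2ra*, *Itgae*, *Jun*, *Maf*, *Mxd4*, *Osm*, *Rasgrp2*, *S1pr4*, *Stim1*, *Tnf*, *Tnfsf14* and *Zap70*. The fits without TAg replicate 2, T0 replicate 1 and N0 replicate 2 lost 14, 12 and 11 of them, the other fits without 1 library 5 to 10, and the fit with marker scores as covariates 12. Without N0 replicate 1, the difference of *Hspa1a* was 1.98 in place of 8.27 (edgeR adjusted p = 0.701) and that of *Hspa1b* 3.35 in place of 8.27 (0.193). The cause was not tested in any of these cases. In the fit of the 6 libraries alone, 3 immediate early genes fell in place of 1, and 3 chemokine receptors in place of 5. Depth limits the genes with few reads in T0, whose fold changes have wide counting intervals.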

Other observations

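The genes named next stand outside the lists and were chosen after their values were seen; values are normalized counts. *Mir155*, the host locus of microRNA-155, whose reads cannot be assigned to the mature microRNA in these libraries, had 33.6, 37.1 and 38.4 in the T0 libraries and 1216, 1221 and 1281 in the TAg libraries (log2 fold change 5.09, standard error 0.16, edgeR adjusted p = 7.24e-16). *Bcat1*, a branched-chain aminotransferase, had 15.9, 21.2 and 14.4 in the T0 libraries and 1713, 1689 and 1590.1 in the TAg libraries, and *Shmt1*, the cytosolic serine hydroxymethyltransferase, had 53.1, 68.9 and 67.1 in the T0 libraries and 4239.5, 4049 and 4173 in the TAg libraries, with log2 fold changes of 6.58 and 6.04. *Jak2*, the kinase of several cytokine receptors, went from 2849.8 ± 364 to 31314 ± 1588 (SD, n = 3), *Kdm6b*, a histone demethylase, from 1543 ± 6.17 to 19019.8 ± 829, *Gadd45b*, an activator of p38, from 111 ± 7.54 to 1681 ± 316, the transferrin receptor *Tfrc* from 972 ± 231 to 10183 ± 826, and *Gzmb*, which encodes the cytotoxic protease granzyme B, from 230.2 ± 47.9 to 2501 ± 703. TAg and T0 did not overlap in any of these genes, all of which rose in naive cells too.

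Among the falls, *Rasgrp2*, an exchange factor for RAP1, had 6511, 6621 and 8825 in the T0 libraries and 612, 664 and 484 in the TAg libraries (log2 fold change −3.64, standard error 0.17, edgeR adjusted p = 1.91e-11). *Dtx1*, a ligase tied to anergy, went from 2976 ± 224 to 302 ± 17.0, *Cdc25b*, a cell cycle phosphatase, from 1206 ± 407 to 67.5 ± 13.7, *Mxd4*, a MYC antagonist, from 1646 ± 99.5 to 117 ± 13.2, the lipid receptor *S1pr4* from 1496 ± 374 to 136 ± 24.6, *Ddit4*, an inhibitor of mTORC1, from 1992 ± 876 to 268 ± 70.9 and the integrin chain *Itgae* from 853 ± 441 to 88.1 ± 33.0. T0 replicate 3 was the highest resting library in *Cdc25b*, *S1pr4* and *Ddit4* and the lowest in *Itgae*. Exons of *Bcat1*, *Shmt1*, *Kdm6b* and *Rasgrp2* overlap those of another gene by at least 100 bp.

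Small nucleolar RNAs guide the modification of ribosomal RNA. Of 272 tested small nucleolar RNA genes, 144 rose and 16 fell, with a median log2 fold change of 0.93 in tolerized and 1.22 in naive cells. Small nucleolar RNA genes commonly lie in introns of other genes, whose reads cannot be told apart from theirs in these counts.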
